A study of Mus musculus with 4 samples.

Results

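Foxf1, Foxf2, Barx1, Osr1, Tbx4 and Tbx5 are 6 genes for transcription factors of the mesenchyme, the loose connective tissue that surrounds the epithelial tube of the embryonic foregut. They were taken by symbol from the 32285 genes measured, and all 6 were present. Their RNA was measured with Visium, a slide of barcoded spots, each of which takes up RNA from the tissue on top of it, in 4 sections of untreated wild-type (WT) mouse tissue. The sections were an E13.5 and an E16.5 section, whose tissue is labelled mouse embryo, and 2 P0 sections labelled esophagus. After spots with fewer than 500 UMIs (unique molecular identifiers, one for each RNA molecule caught) were left out, 3220, 3588, 363 and 264 spots remained at E13.5, E16.5, P0 replicate 1 and P0 replicate 2, with medians of 29289, 26701.5, 25465 and 25619 UMIs per spot.

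A spot holds several cells, often of different types, so fewer cells of a type and less RNA per cell cannot be told apart. Each embryonic stage is a single section, so its values carry 95% counting intervals and no test. Stage also changed together with dissection: the embryo sections held heart, liver and skeletal tissue, whereas the P0 sections were dominated by keratin RNA of a stratified epithelium (Krt13 at 10591 and 10130 UMIs per 1000000 UMIs, abbreviated CPM, Krt4 at 10776 and 10210). Nkx2-1 and Sftpb, which mark lung, had 0 UMIs in both P0 sections, the cartilage gene Col2a1 had 1 and 2 UMIs, and the liver gene Alb had 78 and 376 UMIs. In the muscle-rich, epithelium-rich and other P0 spots defined below, the 5 distal lung genes had 1, 5 and 2 UMIs in replicate 1. In replicate 2 they had 1, 4 and 5. The 5 airway genes (Scgb3a2 and Cyp2f2 among them) were at 3145.2 and 2923.5 CPM in all in epithelium-rich spots of replicates 1 and 2. Nothing in the labels says whether the 2 P0 sections came from separate animals, so the p-values speak only for these 2 sections. They rest on how differences between groups of spots varied between the sections, with spread borrowed from other genes.

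In the embryo, Sonic hedgehog (Shh) secreted by gut and lung epithelium acts on the mesenchyme around it, and the forkhead genes Foxf1 and Foxf2 are known targets of that signal. Barx1 encodes a homeodomain protein of stomach and esophageal mesenchyme that is also made in the mesenchyme of the jaw, and Osr1 encodes a zinc finger protein of several mesodermal tissues, lung and heart among them. The T-box genes Tbx4 and Tbx5 act together in lung mesenchyme. Tbx5 is also a regulator of heart and forelimb, and Tbx4 of the hindlimb.

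Per RefSeq (GRCm38.p6), Foxf1 (ENSMUSG00000042812) lies at chr8:121084386-121088154, with the long non-coding RNA gene Fendrr 1275 bases from it. Foxf2 (ENSMUSG00000038402) lies at chr13:31625816-31631406, Barx1 (ENSMUSG00000021381) at chr13:48663036-48666507, Osr1 (ENSMUSG00000048387) at chr12:9574442-9581500, Tbx4 (ENSMUSG00000000094) at chr11:85886367-85916097 and Tbx5 (ENSMUSG00000018263) at chr5:119796514-119885220. RefSeq promoter windows, 250 bases before and 50 bases after a gene's start, were matched for Foxf2, Barx1 and Tbx4, that is 3 of the 6 genes, and for Fendrr. Those of Foxf2 and Barx1 are shown as members, and that of Fendrr because no gene ranked further below had a pattern more like Foxf1 at E13.5. Foxf2 is at chr13:31625566-31625865 (+), Barx1 at chr13:48662786-48663085 (+) and Fendrr at chr8:121083061-121083360 (-), each printed 5′ to 3′ on the strand of the gene, with capitals for the forkhead motif GTAAACA.
Foxf2: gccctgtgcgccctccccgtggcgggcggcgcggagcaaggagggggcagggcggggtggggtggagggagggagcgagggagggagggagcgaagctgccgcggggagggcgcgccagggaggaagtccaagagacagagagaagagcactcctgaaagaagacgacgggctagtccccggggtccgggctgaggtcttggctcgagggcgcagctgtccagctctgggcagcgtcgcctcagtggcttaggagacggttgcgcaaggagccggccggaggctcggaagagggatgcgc
Barx1: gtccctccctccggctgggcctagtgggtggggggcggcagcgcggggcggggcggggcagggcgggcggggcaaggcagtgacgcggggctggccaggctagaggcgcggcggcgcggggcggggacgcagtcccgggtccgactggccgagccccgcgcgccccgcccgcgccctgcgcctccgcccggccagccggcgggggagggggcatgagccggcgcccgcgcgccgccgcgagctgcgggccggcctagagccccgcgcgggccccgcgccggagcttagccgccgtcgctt
Fendrr: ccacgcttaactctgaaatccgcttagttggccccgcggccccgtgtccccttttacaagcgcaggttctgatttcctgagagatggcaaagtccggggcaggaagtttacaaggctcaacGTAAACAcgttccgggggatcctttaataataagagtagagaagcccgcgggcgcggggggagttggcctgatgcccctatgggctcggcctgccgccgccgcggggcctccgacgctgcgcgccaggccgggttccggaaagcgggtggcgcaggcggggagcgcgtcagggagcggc

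The Barx1 window held 50 CpG dinucleotides in 300 bases, the Foxf2 window 27 and the Fendrr window 31, against a median of 7 over the 32851 windows of the table. Of all windows, 99.1% held fewer CpG than that of Barx1, 84.5% fewer than that of Foxf2 and 89.4% fewer than that of Fendrr. A search of both strands for the GLI motif TGGGTGGTC, the forkhead motif GTAAACA and the T-box motif AGGTGTGA found 1 match in these windows, a forkhead motif starting at base 122 of the Fendrr window. The forkhead motif was present in 3.65% of all windows, the GLI motif in 0.253% and the T-box motif in 1.28%, and no motif contains the letters of another.

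The forkhead pair and Barx1 were low over the E16.5 section and higher over the other 3. Foxf1 had 13.3 CPM at E13.5 (95% interval 12.6 to 14.0), 4.98 CPM at E16.5 (4.56 to 5.42), and 37.7 and 32.9 in the P0 sections. Its mean at P0 was 35.3 ± 3.41 CPM (SD, n = 2), which makes it the member with the largest P0 over E13.5 ratio, 2.69 (2.44 to 2.96). Foxf2 had 28.5 CPM at E13.5, 8.11 at E16.5, and 40.3 and 26.9 at P0. The E13.5 level of Foxf2 therefore lay between those of the 2 P0 sections, although the pooled ratio was 1.22 (1.11 to 1.33).

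Barx1 was highest over the E13.5 section. Its levels were 25.7 CPM at E13.5, 3.51 at E16.5, and 17.3 and 11.8 at P0, and the E16.5 over E13.5 ratio of 0.137 (0.122 to 0.152) was the smallest of the 6. Osr1 had 56.9 CPM at E13.5, 23.8 at E16.5, and 48.0 and 36.8 at P0. The 4 sections thus had the same order for Osr1 as for Barx1, over a narrower range.

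The 2 T-box genes were at low levels everywhere. Tbx4 had 4.22 CPM at E13.5, 3.17 at E16.5, and 2.34 and 1.495 at P0, where these levels rest on 24 and 11 UMIs. Tbx5 had 3.91 and 3.81 CPM at E13.5 and E16.5, a ratio of 0.973 (0.844 to 1.12) whose interval includes 1, and 3.22 and 2.18 at P0 from 33 and 16 UMIs. The P0 intervals of each T-box gene overlapped between the 2 sections.

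**Figure D1:**
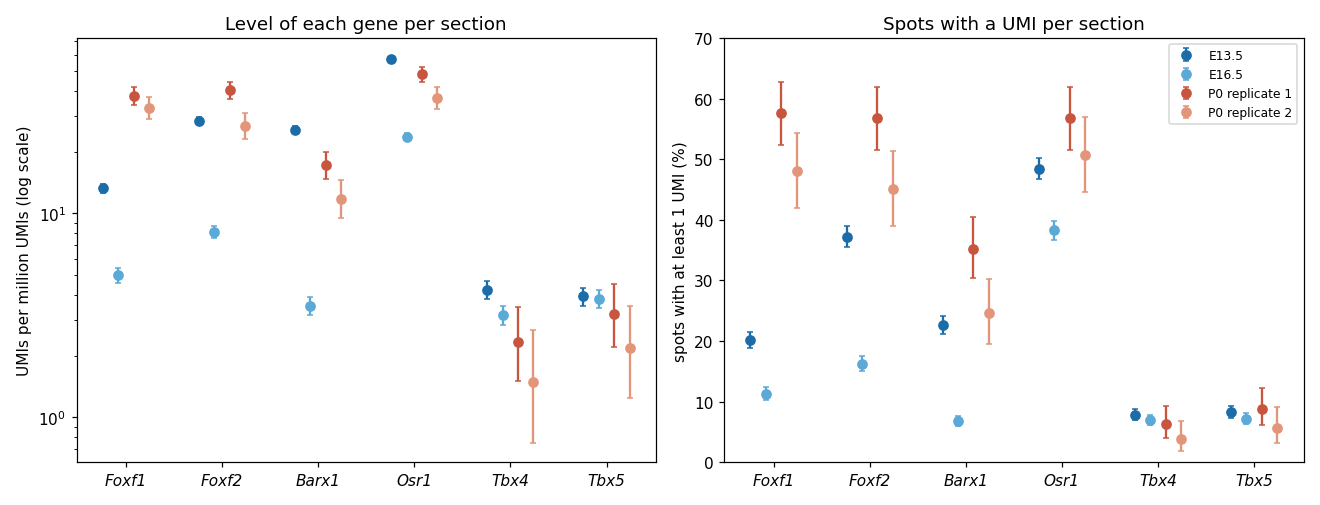
Level (left, CPM, log scale) and percentage of spots with at least 1 UMI (right) of each gene in the E13.5, E16.5 and 2 P0 sections; bars are exact 95% counting intervals. Foxf1, Foxf2, Barx1 and Osr1 are lowest at E16.5, whereas Tbx4 and Tbx5 stay below 5 CPM in all 4 sections.

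The share of spots in which a gene was caught did not always have the order of the levels: Barx1 and Osr1 were highest at E13.5 by level, but at P0 by share. Foxf1 was found in 20.2% of spots at E13.5, 11.3% at E16.5, and 57.6% and 48.1% at P0, and Foxf2 in 37.2%, 16.3%, 56.7% and 45.1%. Barx1 was found in 22.6%, 6.80%, 35.3% and 24.6% of spots and Osr1 in 48.4%, 38.2%, 56.7% and 50.8%. Tbx4 and Tbx5 never passed 8.82% of spots in any section.

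With each spot thinned to 10000 UMIs, which leaves out 166, 450, 12 and 17 shallower spots, Foxf1 was found in 10.6%, 5.29%, 30.2% and 27.5% of spots. Foxf1 was then still lowest at E16.5 and highest at P0. For Osr1 (31.0%, 21.7%, 39.0% and 28.7%) and Barx1 (14.1%, 3.38%, 17.7% and 13.8%) thinning put P0 replicate 2 below E13.5, the opposite of the order with all UMIs. The 95% intervals of E13.5 and P0 replicate 2 overlapped for both genes, thinned or not, so neither order is settled. For comparison, the E13.5 spots rich in neural progenitor genes (median 33058.5 UMIs) had a Foxf1, Barx1 or Osr1 UMI in 6.25% of cases each. Foxf2 was found in 14.1% and Tbx5 in 1.56% of them, while 0 of 64 such spots had Tbx4 (exact 95% upper bound 5.60%). Whether these UMIs are background or come from other cells in the spots was not tested. Heart-rich spots at E16.5 held Foxf1 in 9.72% of cases, against 11.3% in the whole section, and Foxf2 and Barx1 in 6.94% each. These shares are unthinned and the heart-rich spots were deeper (median 51602 UMIs, against 26701.5 in the section), so they are not comparable as levels.

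To place the members in the embryo sections, spots were scored with marker genes of 20 tissues, and the 2% of spots with the highest score (64 at E13.5, 72 at E16.5) were called rich in that tissue. A list was used where its genes were at least 10 times higher in those spots than elsewhere and at least 3 of its genes had 20 UMIs there, which held for 10 lists in each section. The members are in none of the lists. Some selections share spots, for example 38 of 64 for liver and blood at E13.5 and 33 of 72 for mesothelium and epithelium at E16.5, and tissue next to a marker's own tissue enters the same spots.

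Among the lists used at E13.5, Foxf1 was highest in spots rich in smooth muscle genes (Myh11, Acta2, Tagln). It had 124.8 CPM there (110.7 to 140.2), against 10.6 in the other spots, a ratio of 11.7 (10.3 to 13.4), and 92.2% of those spots held it. Epithelium-rich spots followed with a ratio of 3.11 (2.36 to 4.04). Neural progenitor-rich and heart-rich spots had the lowest levels, 1.88 and 1.97 CPM, with ratios of 0.139 and 0.145. The largest patch of touching spots with at least 2 Foxf1 UMIs had 71 spots, in which the smooth muscle genes were 14.4 times as high as outside.

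Foxf2 was spread over more places at E13.5. Its level was 89.7 CPM in smooth muscle-rich spots, 83.2 in spots rich in jaw mesenchyme genes (Msx1, Msx2, Pax9, Lhx8) and 82.0 in epithelium-rich spots, values whose counting intervals overlap. In the remaining lists it did not pass 45.5 CPM, the value of cartilage-rich spots, and in liver-rich spots it was 0.560. The 2 forkhead genes thus shared the smooth muscle-rich spots, whereas Foxf1 was at 25.3 CPM in the jaw-rich spots.

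Barx1 had its main E13.5 patch where jaw mesenchyme genes were raised, a place given by marker genes alone. That patch of 175 spots held 1310 of the 2539 Barx1 UMIs of the section. Within it the jaw mesenchyme genes were 3.72 times as high as outside, less than the 10 times asked of a list. Mesothelium-rich spots had 44.7 CPM (35.8 to 55.0), but only 18.8% of them held Barx1, fewer than the 22.7% of other spots. A separate patch of 33 spots with 302 Barx1 UMIs carried mesothelial genes at 10.3 times and liver genes at 5.65 times their level elsewhere. In that patch Hand2, a transcription factor gene of heart, limb and gut mesenchyme, stood at 111.7 CPM against 21.4 outside, and Nkx2-1, Sftpc and Pax9 had 0 UMIs.

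Osr1 was the most widely placed member at E13.5. Smooth muscle-rich spots had 218.9 CPM (200.1 to 239.0) and jaw-rich spots 196.0 (175.2 to 218.5), with heart-rich and striated muscle-rich spots at 47.6 and 47.8. Its largest patches had 384 and 270 spots. In the 384-spot patch the smooth muscle, mesothelium and heart genes were 6.90, 4.35 and 3.76 times as high as outside, and in the 270-spot patch the jaw genes were 6.52 times as high.

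**Figure D2:**
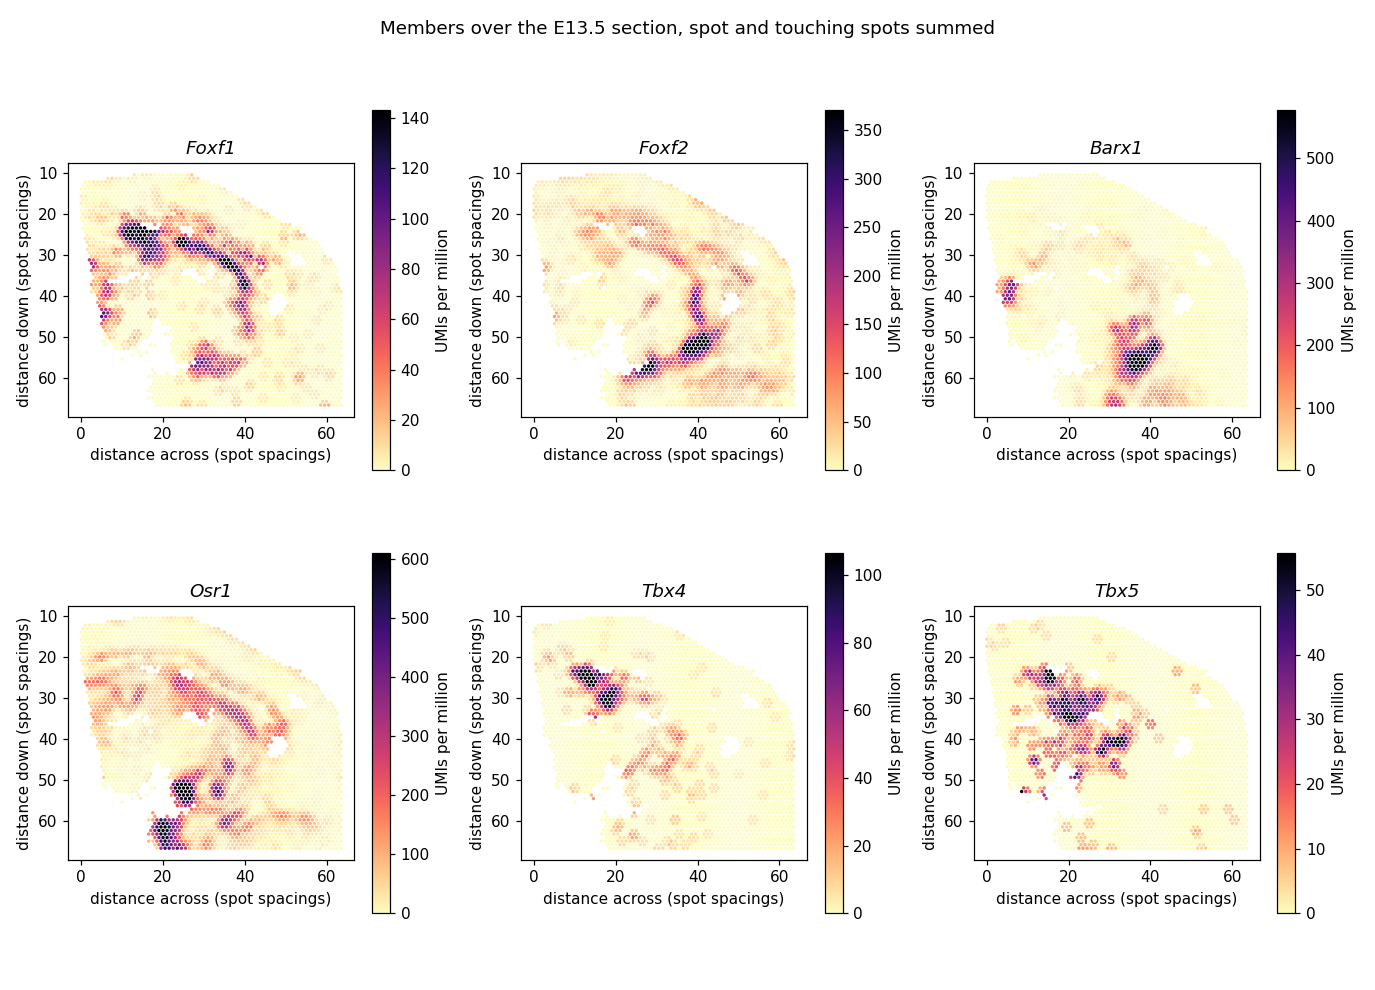
Level of each gene over the E13.5 section (CPM over a spot and its touching spots, one colour scale per gene, topped just under the highest values); axes are distances in spot spacings. Foxf1 forms a band through the middle of the section, Barx1 lies mostly in the lower part, and Tbx4 is gathered in the upper left, where Foxf1 and Tbx5 are also high.

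The E13.5 patches of Tbx4 carried lung genes, although no lung list was used there. The distal lung list was not used at this stage because only 2 of its 5 genes had 20 UMIs in the selected spots, and mesothelium-rich spots gave the highest Tbx4 level, 12.2 CPM (7.81 to 18.1). There were 2 Tbx4 patches of at least 5 spots. In that of 34 spots Nkx2-1, the transcription factor of lung and thyroid epithelium, was at 85.8 CPM against 2.95 outside, and the surfactant gene Sftpc at 94.3 against 1.40. In that of 22 spots the values were 44.5 against 3.71 for Nkx2-1 and 48.0 against 2.24 for Sftpc. The genes given for patches here were looked up after the patches had been seen.

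The same 2 patches were rich in Foxf1 and Tbx5. Foxf1 stood at 90.1 and 153.0 CPM in them and Tbx5 at 29.7 and 35.6, whereas Barx1 stood at 10.2 and 7.12. Wnt2, a ligand of lung mesenchyme, was at 54.4 and 112.1 CPM, against 6.60 and 6.57 outside.

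Among the lists used, Tbx5 was highest in heart-rich spots at both embryonic stages. At E13.5 it had 25.2 CPM in heart-rich spots (Myh6, Myl7, Nppa), a ratio of 7.51 (5.65 to 9.85), and at E16.5 it had 31.8, a ratio of 11.3 (9.03 to 14.1). The 29.7 and 35.6 CPM of Tbx5 in the 2 E13.5 Tbx4 patches were higher than 25.2, but without intervals this order is not settled. The largest E13.5 patch of Tbx5, of 35 spots, had heart genes at 21.8 times their level elsewhere and Gata4, a cardiac and endodermal transcription factor gene, at 82.7 CPM against 7.67. A second patch of 10 spots, with 24 Tbx5 UMIs, had 0 UMIs of Gata4 and of Nkx2-1.

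At E16.5 the distal lung list passed the rule, and 4 members were higher in its spots than elsewhere. In spots rich in distal lung genes (Sftpc, Sftpb, Nkx2-1) Tbx4 had 95.4 CPM (79.4 to 113.8), a ratio of 47.3 (37.6 to 59.3), and these 72 spots held 37.0% of its UMIs in the section. Foxf1 had 84.7 CPM there, a ratio of 21.2 (17.0 to 26.2), and Foxf2 had 47.7, a ratio of 6.27 (4.76 to 8.12). Tbx5 had 26.2 CPM, with an interval of 18.1 to 36.6 that overlaps that of heart-rich spots (26.2 to 38.1). Barx1 had 1 UMI in the distal lung-rich spots, and Osr1 was below its level elsewhere, at 15.4 CPM, a ratio of 0.645 (0.393 to 0.998).

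The lung in the E16.5 section lay at the edge of the capture area, so its full extent was not measured. Airway-rich spots (Scgb3a2, Cyp2f2) differed from distal lung-rich ones in their members. Tbx4 was at 14.1 CPM and Foxf1 at 15.7 in airway-rich spots, both below their distal lung values, while Osr1 was at 37.7, above its distal lung value, with intervals that do not overlap in any of these 3 cases. Tbx5 stood at 21.9 CPM, with overlapping intervals.

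Among the lists used, Barx1 at E16.5 was highest in spots rich in jaw mesenchyme genes. Jaw mesenchyme-rich spots had 38.0 CPM (27.6 to 51.0), a ratio of 12.1 (8.64 to 16.7), and its largest patch of 20 spots had jaw genes at 7.01 times their level elsewhere. Foxf2 shared that place, with 43.2 CPM in jaw-rich spots and a largest patch of 23 spots, whereas Foxf1 had 4.32 CPM there. Osr1 had 67.4 CPM in smooth muscle-rich spots and 47.5 in jaw-rich spots, with overlapping intervals.

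**Figure D3:**
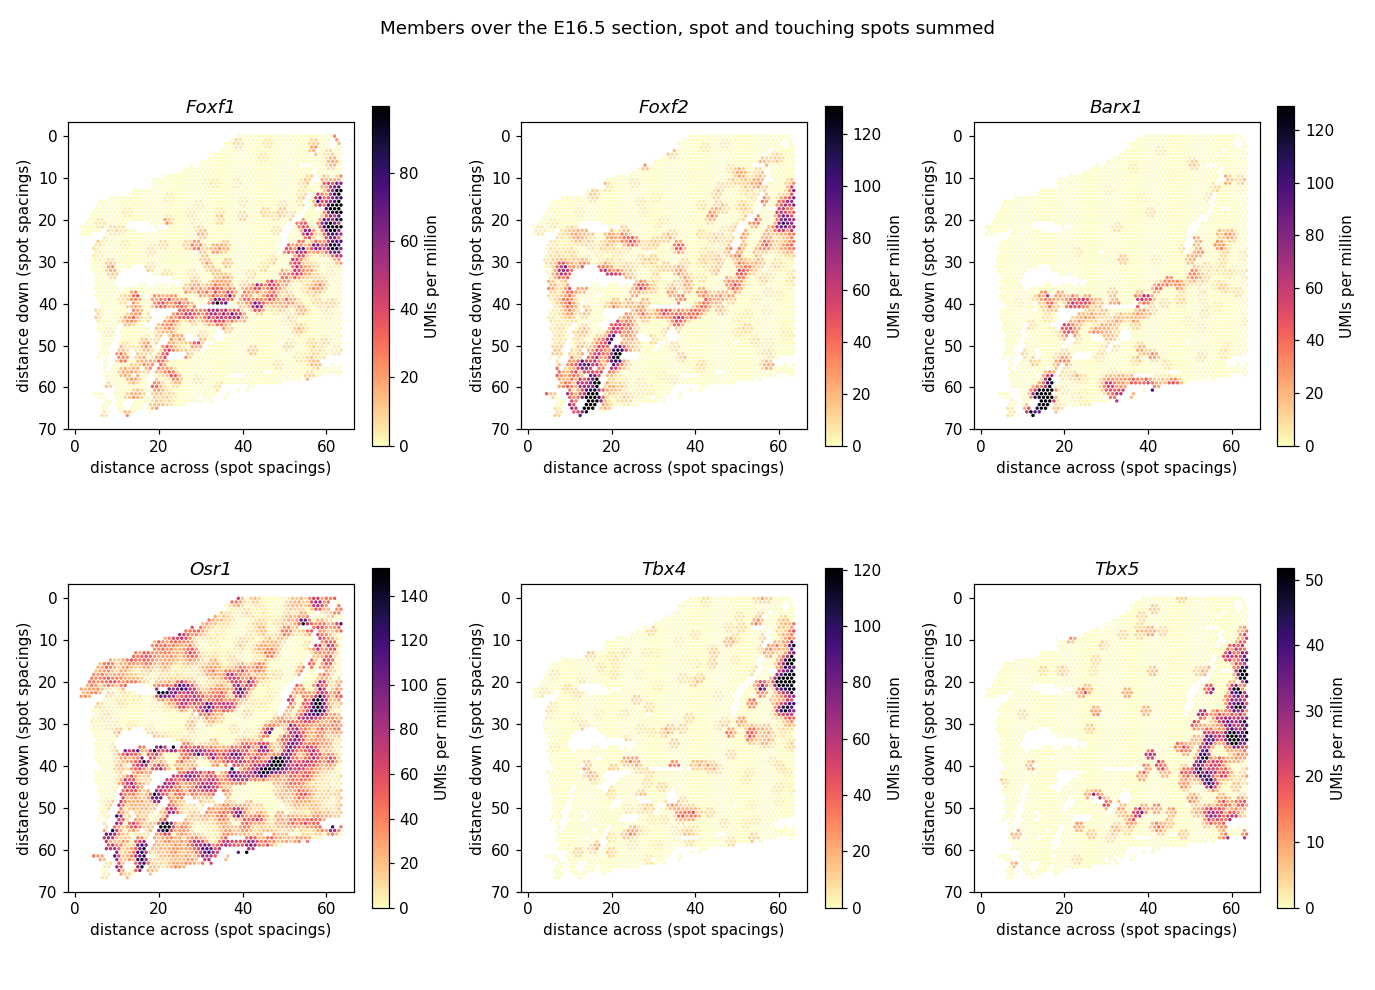
Level of each gene over the E16.5 section, drawn as for E13.5 with its own colour scales. Tbx4 and the highest Foxf1 spots lie at the right edge, where distal lung genes are high, and Barx1 and Foxf2 share a patch at the lower left.

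**Figure D4:**
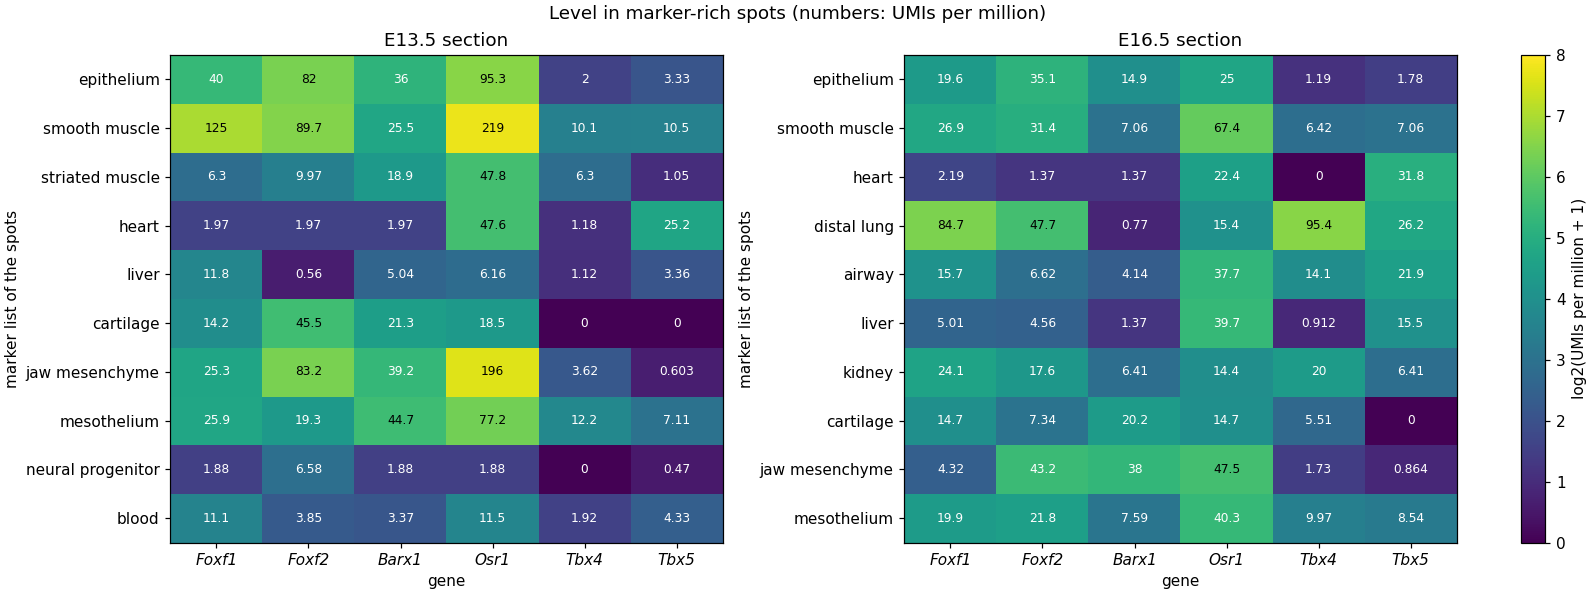
Level (numbers, CPM; colours, log2 of the level plus 1) of each gene in spots rich in each marker list at E13.5 (left, 64 spots a list) and E16.5 (right, 72 spots a list). Among the lists used, smooth muscle-rich spots lead for Foxf1 at E13.5 (125), distal lung-rich spots for Tbx4 at E16.5 (95.4), and heart-rich spots for Tbx5 at both stages.

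For each member the genes with the most similar pattern were ranked. Only genes with at least 500 UMIs in an embryo section, or 200 in each P0 section, entered the ranking. The measure was Pearson's r over spots of log(1 + UMIs per 10000), each spot summed with its touching spots. These r values are descriptions over 3220, 3588 or, at P0, 363 and 264 spots, which share counts with neighbours and share one tissue layout and depth. For Foxf1 the 3 highest were Fendrr (0.78), the myosin light chain kinase gene Mylk (0.72) and the phosphodiesterase gene Pde5a (0.67) at E13.5. Among the genes ranked at E16.5 they were the mesenchymal transcription factor gene Tcf21 (0.68) and the lung genes Sfta2 and Cxcl15 (0.66 each). At P0 they were the muscle genes Dmpk (0.68), Pde5a (0.67) and Synpo2 (0.66). Fendrr had 472 UMIs at E16.5 and 184 and 149 at P0, so it was ranked at E13.5 alone. Its r with Foxf1 at E16.5 was 0.70, above that of Tcf21.

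For Foxf2 the 3 highest were Pax9 (0.59), Col23a1 (0.56) and Sim2 (0.53) at E13.5, and Ifitm1 (0.52), Sim2 (0.51) and Wnt5a (0.49) at E16.5. For Barx1 they were Sim2 and Six2 (0.56 each) and Gsc (0.54) at E13.5, and Sim2 and Kera (0.65 each) and Pax9 (0.47) at E16.5. At P0 the genes most like Foxf2 were Pde5a (0.76), Mylk (0.74) and Dmpk (0.74), of which Pde5a and Dmpk were also among the 3 of Foxf1, and those most like Barx1 were Igfbp7 (0.59), Aoc3 (0.57) and Akap12 (0.55).

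For Osr1 the 3 nearest genes were Cd248 (0.73), S1pr3 (0.72) and Col26a1 (0.71) at E13.5, Fstl1 (0.65), Loxl1 (0.64) and Cd248 (0.64) at E16.5, and Sparcl1 (0.84), Gas1 (0.83) and Cpe (0.81) at P0. Tbx4 was nearest to Ppp1r14a (0.65), Wnt2 (0.64) and Fhod1 (0.53) at E13.5, and to the lung genes Cxcl15 (0.85), Sftpb (0.84) and Cldn18 (0.84) at E16.5. Tbx5 was nearest to Smtnl2 (0.60), the atrial myosin gene Myl7 (0.59) and Rbpms (0.57) at E13.5, and Myl7 (0.65) and Mybphl (0.65) were among its nearest at E16.5. The T-box genes had too few UMIs at P0 for this measure.

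For most of the 15 pairs of members, a member was found more often in spots that held the other than in spots that did not, in 13 pairs at E13.5, 14 at E16.5, and 13 and 14 at P0. In spots thinned to 10000 UMIs this held for 13, 13, 14 and 11 pairs. Some of these pairs rest on few spots: in thinned P0 replicate 2, Tbx4 was found in 4 and Tbx5 in 5 of 247 spots. The share of such pairs among all other genes was not measured, so the counts are not a trait particular to the members. At E13.5 Tbx5 was found in 32.3% of the 254 spots with Tbx4 and in 6.20% of spots without it, and Foxf1 in 44.9% of Tbx4 spots against 18.0% of the others. At E16.5 the shares were 19.3% against 6.29% for Tbx5 and 29.3% against 10.0% for Foxf1. Foxf2 was found in 57.3% of the 649 Foxf1 spots at E13.5, against 32.1% of spots without Foxf1, and in 32.4% against 14.2% at E16.5. Median depths of the spots with and without Foxf1 were 29765 and 29204 UMIs at E13.5.

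With all UMIs the exceptions in the embryo sections all involved Tbx5. At E13.5 Foxf2 was found in 32.7% of the 266 Tbx5 spots and in 37.6% of spots without Tbx5, and in thinned spots in 14.2% against 21.0%; the other exceptions were Barx1 with Tbx5 at E13.5 and Foxf2 with Tbx5 at E16.5. At P0 Foxf2 was found in 65.6% and 59.8% of Foxf1 spots, against 44.8% and 31.4% of the spots without Foxf1. Barx1 spots held Osr1 in 69.5% and 64.6% of cases at P0, against 49.8% and 46.2% of the others. All 6 members had a UMI in 8 spots at E13.5, 2 at E16.5, and 1 and 0 at P0, while 26.9%, 42.3%, 13.2% and 20.5% of spots held none of them.

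At P0 the question was where in the esophageal wall the members lie. The 25% of spots of a section with the highest smooth plus striated muscle score were set against the 25% with the highest epithelial score, with UMIs summed per section. Summed counts of 12689 genes were fitted with edgeR's quasi-likelihood F test with the section as a block, and p-values were adjusted over all genes (Benjamini-Hochberg). Of these genes, 29.4% were higher and 26.6% lower in muscle-rich spots at an adjusted p of 0.05. All 5 members tested were higher in muscle-rich spots, and Tbx4 did not pass the filter on low counts. Muscle-rich spots were also richer in the 8 stroma markers, at 14541 and 12745 CPM in all, against 2997 and 2858 CPM in epithelium-rich spots, and the part of stroma in these differences was not tested in this fit.

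Osr1 had 132.8 and 91.3 CPM in the muscle-rich spots of P0 replicates 1 and 2, against 7.82 and 6.95 in the epithelium-rich spots. This is a log2 difference of 3.67 ± 0.17 (SE; edgeR adjusted p = 8.2e-13). Foxf1 had 80.8 and 79.8 CPM in muscle-rich spots, against 10.5 and 8.69 in epithelium-rich spots, a log2 difference of 2.80 ± 0.19 (edgeR adjusted p = 1.42e-10). Muscle-rich levels lay above epithelium-rich levels in both sections for each of these genes.

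Foxf2 had 73.7 and 58.1 CPM in muscle-rich spots, against 10.2 and 6.25 in epithelium-rich spots, a log2 difference of 2.73 ± 0.20 (edgeR adjusted p = 5.79e-10). Barx1 had 29.3 and 15.97, against 4.58 and 3.13, a log2 difference of 2.29 ± 0.30 (edgeR adjusted p = 1.92e-06). Barx1 was at 22.3 and 18.2 CPM in the spots of neither selection, and in replicate 2 this was above its muscle-rich level, with overlapping intervals.

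Tbx5 had 15 and 10 UMIs in muscle-rich spots, against 3 and 0 in epithelium-rich spots. The pooled ratio was 15.5 with a counting interval of 4.72 to 80.1, and the fitted log2 difference was 3.60 ± 0.75 (edgeR adjusted p = 0.000414). Within 1 section the log2 ratio of CPM, with no fit, was 2.71 without replicate 2 and 5.12 without replicate 1. The 5.12 rests on 10 UMIs against 0, so its size depends on the small count added before taking logs. With the highest 15% of spots in place of 25%, Tbx5 no longer passed the filter. Tbx4 had 7 and 2 UMIs in muscle-rich spots, against 6 and 5 in epithelium-rich spots, a pooled ratio of 1.52 (0.557 to 4.03). A difference for Tbx4 was not detectable at this depth. Foxf1 was found in 81.3% and 71.2% of muscle-rich spots (median depth 20274 and 22535.5 UMIs), against 36.3% and 33.3% of epithelium-rich ones, which were deeper (39325 and 38936.5 UMIs).

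A second fit of 11480 genes split the wall into smooth muscle-rich, striated muscle-rich, stroma-rich (collagens, Dcn, Lum) and epithelium-rich spots. The classes were mixed: 90 and 63 spots of replicates 1 and 2 were in several selections. Smooth muscle genes were at 11278 and 6276 CPM in stroma-rich spots, against 21258 and 19536 in smooth muscle-rich spots. Stroma genes were at 13567 and 15614 CPM in smooth muscle-rich spots, against 27349 and 28162 in stroma-rich spots. How far this mixing shapes the comparisons was not tested. In stroma-rich over epithelium-rich spots 20.4% of genes were higher, and in smooth muscle-rich over epithelium-rich spots 23.9%. The same 5 members were higher in both comparisons. Barx1 was highest in stroma-rich spots, with 52.5 and 44.0 CPM, against 4.66 and 3.13 in epithelium-rich spots, a log2 difference of 3.19 ± 0.32 (edgeR adjusted p = 8.43e-08).

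Smooth muscle-rich spots were then set against stroma-rich ones, where 2.84% of genes were higher. Osr1 was the member that passed, with 155.1 and 108.4 CPM in smooth muscle-rich spots, against 84.2 and 80.2 in stroma-rich spots, a log2 difference of 0.79 ± 0.17 (edgeR adjusted p = 0.0112). The call was lost with DESeq2 (adjusted p = 0.285) and without the section as a block (adjusted p = 0.0511). Barx1 lay on the other side, at 33.3 and 16.8 CPM in smooth muscle-rich spots, against 52.5 and 44.0 in stroma-rich spots, but did not pass (log2 difference -0.80 ± 0.28, edgeR adjusted p = 0.119). Foxf1 had 97.8 and 98.0 CPM, against 73.2 and 59.5, and did not pass either (0.64 ± 0.20, edgeR adjusted p = 0.0813).

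Against striated muscle-rich spots 2.29% of genes were higher in smooth muscle-rich spots, and 3 members were among them. Foxf2 had 91.4 and 81.3 CPM in smooth muscle-rich spots, against 37.2 and 33.6 in striated muscle-rich spots, a log2 difference of 1.16 ± 0.23 (edgeR adjusted p = 0.00323). Osr1 had 155.1 and 108.4, against 86.9 and 57.4, a log2 difference of 0.80 ± 0.18 (edgeR adjusted p = 0.00752). Foxf1 had 97.8 and 98.0, against 47.2 and 56.4, a log2 difference of 0.80 ± 0.21 (edgeR adjusted p = 0.0259). In each of the 3 genes both sections ran the same way, but DESeq2 called none of the 3 (adjusted p = 0.0558 for Foxf2, 0.242 for Osr1 and 0.345 for Foxf1).

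**Figure D5:**
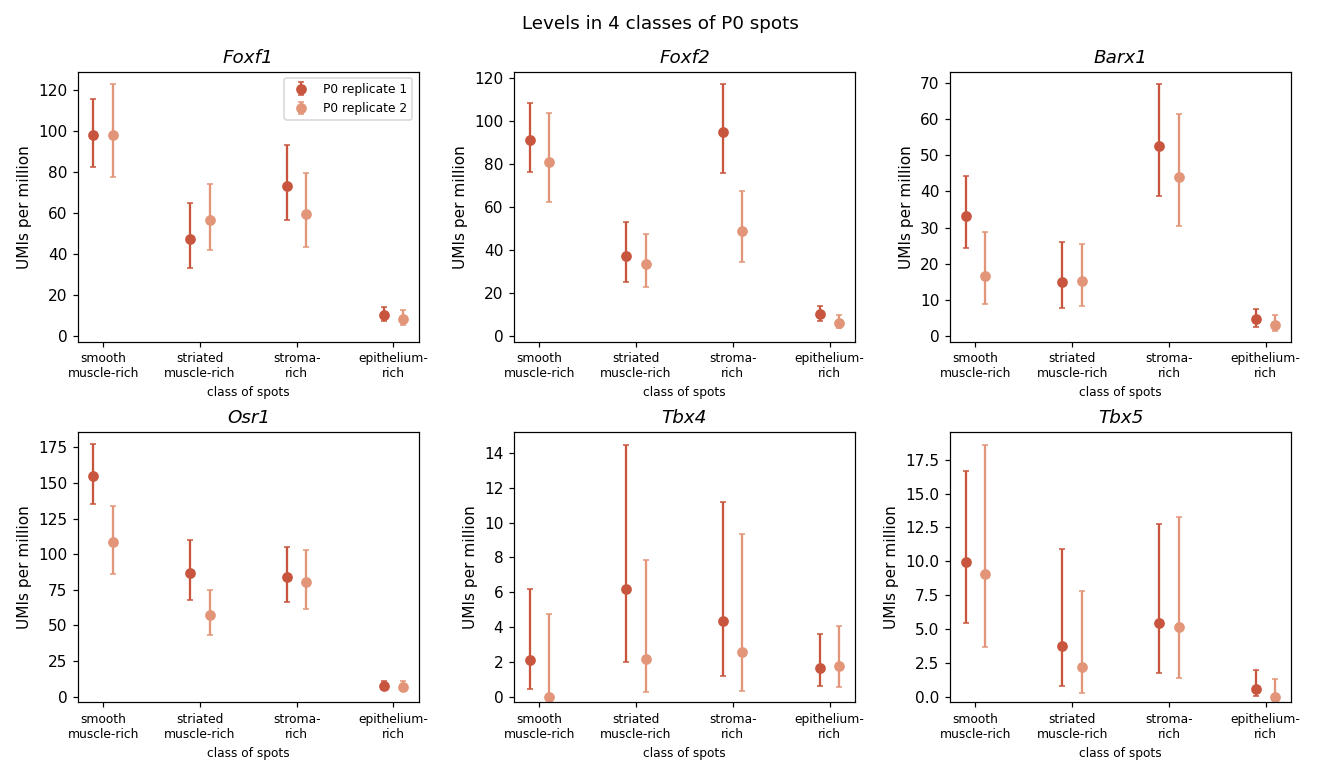
Level of each gene (CPM, linear axis) in smooth muscle-rich, striated muscle-rich, stroma-rich and epithelium-rich spots of the 2 P0 sections; bars are exact 95% counting intervals. Foxf1, Foxf2 and Osr1 are highest or nearly so in smooth muscle-rich spots, Barx1 in stroma-rich spots (52.5 and 44.0), and all of them are lowest in epithelium-rich spots.

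The genome neighbours of the members did not all share their place at P0. Fendrr had 42.4 and 39.0 CPM in muscle-rich spots, against 5.66 and 6.60 in epithelium-rich spots, a log2 difference of 2.49 ± 0.24 (edgeR adjusted p = 2.57e-08), close to that of Foxf1. Across spots Fendrr and Foxf1 had r = 0.78 at E13.5, 0.70 at E16.5, and 0.43 and 0.25 at P0. The 2 other forkhead genes beside Foxf1 had few UMIs at P0: Foxl1 had 25 and 27 in the whole sections and a log2 difference of 0.80 ± 0.76 (edgeR adjusted p = 0.39), and Foxc2 had 8 and 10 and was not tested.

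The neighbours of Foxf2 ran in opposite directions. Foxq1, a forkhead gene expressed in epithelia, had 29.3 and 26.8 CPM in muscle-rich spots, against 173.4 and 165.4 in epithelium-rich spots, a log2 difference of -2.85 ± 0.14 (edgeR adjusted p = 1.28e-12). Foxc1 was higher in muscle-rich spots, by 1.79 ± 0.36 (edgeR adjusted p = 0.000278). Of the T-box neighbours, Tbx3, beside Tbx5, had 16.7 and 23.0 CPM in muscle-rich spots against 1.08 and 0.695 in epithelium-rich spots, and Tbx2, beside Tbx4, had 35.9 and 25.5 against 22.4 and 11.5. Tbx2 and Tbx4 had r = 0.52 at E13.5 and 0.67 at E16.5.

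Other mesenchymal transcription factors mostly ran with the members at P0. Of 30 listed genes 25 were tested, of which 18 were higher and 2 lower in muscle-rich spots, with a median log2 difference of 1.64 against 0.04 over all genes. Hand2 was highest, with 42.9 and 44.1 CPM in muscle-rich spots against 1.89 and 0.347 in epithelium-rich spots (log2 difference 4.87 ± 0.37), and Tbx3 was also among the highest (4.12 ± 0.51). The lowest were Pitx1, with 110.6 and 95.8 CPM in muscle-rich spots against 329.6 and 322.4 in epithelium-rich spots (-1.91 ± 0.12), and Osr2, a relative of Osr1 (-1.11 ± 0.21), which ran opposite to Osr1. Meis2 (-0.30 ± 0.13) did not pass the test (edgeR adjusted p = 0.0558).

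Of 20 signalling genes between epithelium and mesenchyme 15 were tested, of which 12 were higher and 2 lower in muscle-rich spots, with a median log2 difference of 1.93 against 0.04 over all genes. Shh, the epithelial ligand, had 8.08 and 4.47 CPM in muscle-rich spots, against 29.1 and 23.6 in epithelium-rich spots, a log2 difference of -2.29 ± 0.26 (edgeR adjusted p = 3.44e-07). The BMP antagonist gene Nog was higher by 5.84 ± 0.86, a fitted value that rests on 0 and 1 UMIs in epithelium-rich spots, the ligand gene Wnt5a by 2.87 ± 0.21 and the Hedgehog effector gene Gli2 by 2.36 ± 0.33. Rarb, a retinoic acid receptor gene, was lower (-1.64 ± 0.21), and the Hedgehog receptor gene Ptch1 did not pass the test (0.09 ± 0.14, edgeR adjusted p = 0.623).

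In the embryo sections Shh lay closer to Tbx4 and Foxf1 than to Foxf2 or Tbx5. Its r over spots at E13.5 was 0.20 with Tbx4, 0.23 with Foxf1, 0.10 with Tbx5 and 0.13 with Foxf2. At E16.5 it was 0.55 with Tbx4, 0.41 with Foxf1, 0.28 with Tbx5 and 0.19 with Foxf2. In the 34-spot Tbx4 patch of the E13.5 section Shh was at 40.8 CPM against 5.10 outside.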

How the data were processed

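The deposited files hold raw counts: whole-number UMIs per gene and spot, made by the authors with Space Ranger 2.0.0, per the file headers, against mm10, per the submitters' processing notes. Tissue was fresh frozen and cut at 8 µm, per the labels. Groups follow the sample titles; the tissue images were not used here.

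Spots below 500 UMIs were left out, which left 98643829, 105834164, 10260709 and 7356008 UMIs at E13.5, E16.5, P0 replicate 1 and P0 replicate 2. Levels are UMIs per 1000000 with exact Poisson intervals, shares carry Clopper-Pearson intervals and ratios exact conditional ones; all cover counting error only. Spots were scored as the mean of log(1 + UMIs per 10000) over marker genes. P0 sums were fitted with edgeR 4.0.16 in R 4.3.3 (TMM, filterByExpr, marker genes left out), with 2 residual degrees of freedom between regions and 4 between classes beside 16.9 and 15.5 borrowed from other genes, and checked on simulated data. DESeq2 1.42.0 was an alternative.

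The members, gene lists and tests were chosen with earlier results of these data known. Companion genes are the 3 with the highest r per member and stage, and of each related list the 3 highest and 3 lowest differences are named. Some genes that these rules name are not reported here.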

Additional observations from a re-analysis of the deposited data

Results flagged for a closer look

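The same contrast, smooth muscle-rich over epithelium-rich spots with spots in both left out, lay on opposite sides of 1 between stages for 2 members, Barx1 (both embryo stages below 1, P0 above) and Foxf2 (E16.5 below 1, E13.5 and P0 above). The difference between stages was not tested, and the embryo sections have 1 section a stage and hold epithelium and smooth muscle of several organs. For Barx1 the ratio was 0.684 at E13.5 (95% counting interval 0.457 to 1.03) and 0.476 at E16.5 (0.211 to 1.003), against 8.06 (4.71 to 14.6) and 5.96 (2.69 to 14.51) in P0 replicates 1 and 2. For Foxf2 it was 1.14 at E13.5 (0.887 to 1.46) and 0.885 at E16.5 (0.584 to 1.34), against 8.45 (5.92 to 12.3) and 11.6 (6.94 to 20.3) at P0. All 4 embryo intervals include 1, so in the embryo sections no direction is settled for either gene.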

How the results depend on the processing

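In muscle-rich over epithelium-rich spots at P0, the 5 members tested stayed higher under DESeq2 size factors, the DESeq2 Wald test, no filter, no replicate block, at least 2000 UMIs per spot, and smooth or striated markers alone, and with the highest 15% of spots 4 members did, Tbx5 being filtered out. Leaving out a P0 replicate gave 3.42 to 3.76 for Osr1 and 2.71 to 5.12 for Tbx5 on the log2 scale (values with no test). No paired analysis was possible across stages because no label pairs a section of one stage with a section of another. With DESeq2 the genes called were 2438 in place of 3728 higher in muscle-rich spots, 1483 and 1733 in place of 2664 and 2787 lower in stroma-rich and smooth muscle-rich over epithelium-rich spots, 103 and 45 in place of 326 and 162 for smooth muscle-rich over stroma-rich, and 100 and 222 in place of 263 and 411 for smooth over striated muscle-rich, higher and lower in each case. For smooth muscle-rich over stroma-rich spots, genes called lower were 293 with no filter, 86 with no replicate block and 255 with the highest 15% of spots; members called higher were 2 with no filter and 0 with no replicate block or DESeq2 in place of 1. For smooth over striated muscle-rich spots DESeq2 called 0 members in place of 3. The causes were not tested. The Tbx4 ratio in mesothelium-rich spots at E13.5 fell to 2.19 with the highest 1% of spots, with an interval that includes 1. Thinning turned the difference in Tbx5 between spots with and without Barx1 at E16.5 to -0.105 percentage points, against 1.96. Of the 10 genes most like a member, 2 (Osr1 at P0) to 9 were shared with the ranking from single spots.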
